A study of Mus musculus with 18 samples.

Results

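Pancreatic islets of mice that lack TRAF3 in their beta cells were compared on a high-fat diet (HFD) and on chow. The comparison uses the 3 arrays whose titles name HFD and this knockout and the 3 whose titles name chow and this knockout, which are 6 of the 18 arrays of the series, and 22180 genes measured on each. The knockouts carried floxed TRAF3 alleles (TRAF3loxP/loxP) and RIPCre, a Cre recombinase under the rat insulin promoter, so that the allele is removed in beta cells while the islet's other cells keep it. All mice, male and female, were 16 weeks old and on a C57BL/6 background, and the HFD group had eaten a diet with 45% of its energy as fat for 8 weeks from 8 weeks of age. The same diets were given to floxed littermate controls and to TRAF2 knockouts, with 3 arrays per group, and these serve for reference only. Which gene is floxed in the controls is not stated, nor is it stated that they lack Cre, and the series' own text writes TRAF2 for both knockouts, so genotypes follow the sample labels. Whether each array is 1 separate animal is not stated either.

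TRAF3 is an adaptor protein that, together with TRAF2 and the cIAP ligases, keeps NF-kB inducing kinase (NIK) at low levels. When it is lost, NIK accumulates and the non-canonical NF-kB pathway processes p100 (Nfkb2) to p52, which partners with RelB. TRAF3 also sits below pattern recognition receptors on the route to type I interferons, which induce a broad antiviral gene programme through STAT2 and IRF9. The series addresses the part of NIK in beta cells by way of knockouts that leave it active, and the comparison described here asks how their islets differ between diets.

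The islet label was borne out by the hormone genes. Across the 6 arrays, levels on the log2 scale lay between 11.01 and 11.98 for Ins2, between 12.70 and 12.98 for Gcg and between 12.14 and 13.15 for Sst, where the highest value on any array was 13.5 to 13.6. The exocrine gene Prss1 lay between 9.88 and 11.66, so acinar tissue was present in every sample. Levels of Xist and of Y-linked Eif2s3y showed that chow array 1 and HFD arrays 2 and 3 came from females and the others from males. HFD array 2 stood apart in lymphocyte markers, with a score of 1.87 against -0.84 and -0.55 in the other HFD arrays (a list score is the mean over a list's genes of their deviation from their mean over all 18 arrays, in log2 units). HFD array 3 stood apart in the opposite sense, with the lowest macrophage score of the 6 arrays at -1.08 and an immediate early gene score of 0.57 against 2.04 and 1.94. The ductal marker score was higher on chow (0.72, 0.43 and 1.13) than on HFD (0.10, -0.41 and 0.47), with some overlap, and 1 of 11 ductal markers passed the test.

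Of the 22180 genes, 1923 differed between the diets at an adjusted p under 0.05 (limma, Benjamini-Hochberg), which is 8.67% of all genes: 590 were higher on HFD (2.66%) and 1333 lower (6.01%). The same contrast in the controls gave 196 genes (0.884%, with 0.523% higher and 0.361% lower) and in the TRAF2 knockouts 435 (1.96%, with 0.884% higher and 1.08% lower). At an unadjusted p under 0.05, 2009 genes were higher and 2871 lower in the TRAF3 knockouts. The same level gave 1614 and 1903 in the controls and 1448 and 1767 in the TRAF2 knockouts. The 3 HFD values lay all above or all below the 3 chow values for 25.3% of genes (10.5% above and 14.8% below). Among the genes that changed in the TRAF3 knockouts, 383 fell and 213 rose by more than 1 log2 unit. The count depended on single arrays. It was 902 without chow array 1, 618 without chow array 3, 1228 without HFD array 1 and 877 without HFD array 2, and 281 without HFD arrays 2 and 3 together (138 higher and 143 lower). Without HFD array 3 it was 2466, in near-equal parts of 1191 higher and 1275 lower. Adjusting for the ductal score left 914, and the part of ductal tissue in the remaining results was not tested beyond that. Each diet had 3 arrays, a number that limits the precision of every value. In whole islets, fewer cells of a type and less RNA per cell cannot be told apart.

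Interferon-stimulated genes fell on HFD. Of 31 measured members of the list, 28 fell on HFD and none rose, with a median difference of -2.18 (log2) against 0.02 over all genes. The list score was 1.77, 1.73 and 1.80 on chow and -0.50, -0.39 and -0.54 on HFD, while the 6 control arrays lay between -0.87 and -0.01. The chow mean of 30 of the 31 genes lay above all 6 control arrays, and the HFD mean of 27 lay within their range. Between 26 and 28 members fell whichever single array was left out, 26 fell after adjusting for the ductal score and 21 without HFD arrays 2 and 3. In controls 0 members passed (median -0.23, with 8 lower at an unadjusted p under 0.05). In the TRAF2 knockouts 1 fell (median -0.45, with 11 lower at an unadjusted p under 0.05).

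Transcription factors of the pathway were among the genes that fell. Irf7, the master regulator of type I interferon amplification, read 11.03, 10.99 and 11.08 on chow and 6.61, 6.95 and 6.32 on HFD. The arrays of each diet lay close together and the diets did not overlap, and the level fell by 4.41 log2 units (SE 0.54), a 21.2-fold difference (adjusted p = 0.000344). In the controls Irf7 ranged from 6.00 to 7.22 over both diets, so the chow knockouts were the high group. Stat2, the interferon-specific STAT, read 9.47, 9.44 and 9.36 against 7.06, 7.14 and 6.37 (fell by 2.56, adjusted p = 0.000286). Irf9, the DNA-binding partner of STAT2, read 9.42, 9.70 and 9.52 against 7.32, 7.29 and 7.50 (fell by 2.18, adjusted p = 0.000152). Irf1, which also answers to interferon gamma, differed by 0.13 and did not pass (adjusted p = 0.836).

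The antiviral effectors showed the same arrangement. Oasl2, an oligoadenylate synthetase family member, read 11.38, 11.33 and 11.34 on chow and 7.88, 7.61 and 8.26 on HFD, a fall of 3.43 (SE 0.42, adjusted p = 0.000344). Oas2, which makes the second messenger that activates RNase L, read 8.53, 8.37 and 8.24 against 4.90, 5.33 and 4.71 (fell by 3.40, adjusted p = 0.00131). Bst2 (tetherin), which holds virions at the cell surface, read 9.06, 9.02 and 9.24 against 5.63, 5.94 and 5.91 (fell by 3.28, adjusted p = 5.67e-05). In none of these genes did the diets overlap. Isg15, a ubiquitin-like modifier, read 5.96, 6.53 and 6.55 against 3.71, 4.01 and 3.49 (fell by 2.61, adjusted p = 6.43e-05), and Usp18, the protease that removes it, fell by 2.18 (adjusted p = 5.67e-05). Ifit1, which binds foreign RNA ends, read 10.35, 10.37 and 10.21 against 6.75, 6.72 and 7.86, the least even of these genes on HFD, and fell by 3.20 (adjusted p = 0.00197). The HFD levels of Isg15 lay below the median of every array, where the scale compresses differences. The 3 members that did not pass were Irf1, Ifit3 (-0.47) and Sp100 (-1.40).

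**Figure D1:**
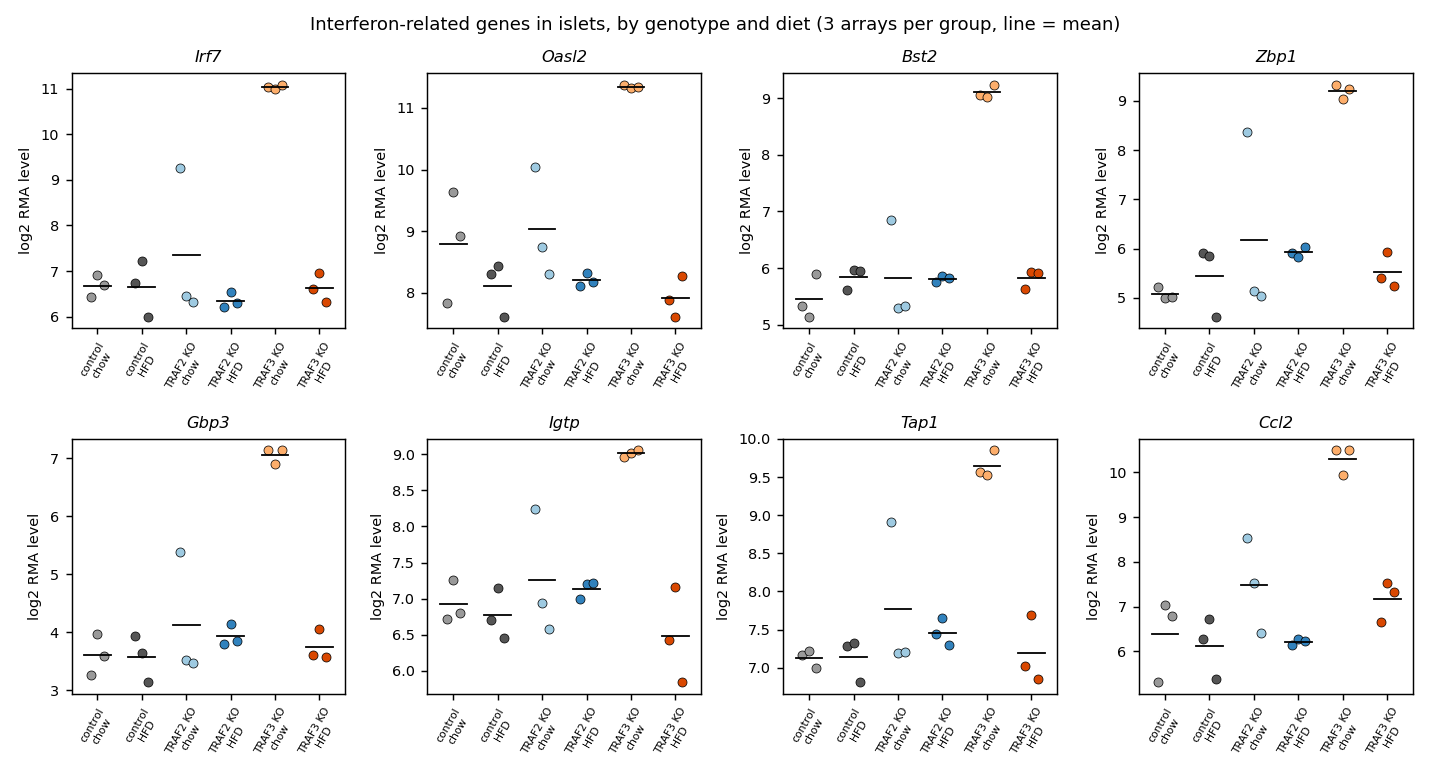
Log2 RMA level (y axis) of 8 interferon-related genes in each of the 18 arrays, by genotype and diet (x axis); points are arrays, and lines are means of 3. For all 8 genes the 3 chow TRAF3 knockout arrays lie above the 3 HFD arrays of that genotype and above all 6 control arrays; Irf7 sits at 10.99 to 11.08 on chow and at 6.32 to 6.95 on HFD.

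Some of the nucleic acid sensors of the pathway fell and others did not pass. Zbp1, a sensor of Z-form nucleic acids, read 9.33, 9.04 and 9.25 against 5.41, 5.93 and 5.23 and fell by 3.68 (adjusted p = 0.0024). The cytosolic RNA sensors Ifih1 (MDA5) and Ddx58 (RIG-I) fell by 2.23 and 1.37 (adjusted p = 0.000128 and 0.00719), and their regulator Dhx58 by 2.91 (adjusted p = 9.12e-05). A further list of sensors and adaptors, chosen after the values were seen, held 9 measured genes, of which 2 fell, 1 rose and 6 did not pass, Cgas, Sting1, Mavs and Irf3 among the latter. Tlr3, the endosomal receptor for double-stranded RNA, read 9.46, 9.48 and 9.86 against 7.69, 7.68 and 7.54 and fell by 1.97 (adjusted p = 5.67e-05). Tbk1, the kinase that phosphorylates IRF3, fell by 0.50 (adjusted p = 0.022), whereas Ticam1 (TRIF), the adaptor of TLR3, rose by 0.73 (adjusted p = 0.0121). Tlr3 passed in every fit that left out 1 array. Tbk1 did not pass without chow array 1, 2 or 3 or HFD array 3, nor Ticam1 without chow array 3 or HFD array 2.

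Transcripts of the interferons themselves were measured too. Of 9 interferon genes, again chosen after the values were seen, none passed (lowest adjusted p = 0.109), and their differences lay between -0.07 and 0.59. Ifnb1, which encodes interferon beta, read 2.70, 2.84 and 2.72 on chow and 2.60, 2.95 and 2.86 on HFD, levels below the median of every array, so its level can hardly be measured there. Of 7 interferon receptors and their kinases, Ifnar2 fell by 0.58 (adjusted p = 0.024) and Ifngr2 by 0.84 (adjusted p = 0.0287). Ifnar2 lost its call without chow array 1 or 3 or HFD array 1, and Ifngr2 without those or HFD array 2. For Jak2, the kinase of the interferon gamma and cytokine receptors, the TRAF3 knockout difference was 0.35 (adjusted p = 0.14) beside a fall of 0.68 in the controls (adjusted p = 0.0337), and the difference between those diet effects passed (adjusted p = 0.0112).

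The interferon-inducible GTPases behaved like the antiviral genes. Of 12 measured guanylate-binding proteins and immunity-related GTPases, which coat and disrupt the vacuoles of intracellular pathogens, 10 fell and none rose (median -2.06), and in controls 0 passed (median -0.07, with 1 lower at an unadjusted p under 0.05). The count was 8 to 10 when 1 array was left out and 5 without HFD arrays 2 and 3. Gbp3 read 7.14, 6.91 and 7.14 on chow and 3.61, 4.05 and 3.57 on HFD (fell by 3.32, SE 0.38, adjusted p = 0.000206). Igtp read 8.97, 9.02 and 9.05 against 6.43, 7.16 and 5.85 (fell by 2.53, adjusted p = 0.00091). Irgm2 and Iigp1 fell by 2.45 and 2.33 (adjusted p = 0.000632 and 0.00778). All 4 passed in every fit that left out 1 array, and the HFD level of Gbp3 lay below the median of every array. In the TRAF2 knockouts 1 of the 12 GTPases fell (median -0.33, with 5 lower at an unadjusted p under 0.05). For 3 of the 12 the TRAF3 knockout diet effect was more negative than that of the TRAF2 knockouts.

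Promoter sequences were read for the genes that fell because the response element through which STAT2 and IRF9 act is known. In RefSeq windows of 250 bases before to 50 after the start (GRCm38.p6), the interferon-stimulated response element was sought on both strands as GAAA, any 2 bases and GAAA again. These letters occurred in 3.99% of the 27025 genes with a window and in 3.87% of the 16990 measured genes with one. Of the interferon-stimulated genes that fell, 19 had a window and 10 held the letters (52.6%). Of the GTPases that fell, 6 had a window and all 6 held them. Both lists are made up of interferon-inducible genes, so high shares can follow from the choice of genes and do not bear on the diets. Among the 1333 genes that fell and the 590 that rose, 1065 and 469 had windows, and 7.04% and 2.99% of these held the letters. The stretches that follow are 100 bases each, on the strand of the gene, with every match in capitals. They belong to 5 of the genes described above and show where the letters lie. A match on the other strand reads TTTC, any 2 bases and TTTC. A match describes the letters in the window and is no evidence of binding.
Isg15, chr4:156200830-156200929, minus strand: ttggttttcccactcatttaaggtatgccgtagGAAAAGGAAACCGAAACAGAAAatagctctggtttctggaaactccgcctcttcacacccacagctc
Bst2, chr8:71537542-71537641, minus strand: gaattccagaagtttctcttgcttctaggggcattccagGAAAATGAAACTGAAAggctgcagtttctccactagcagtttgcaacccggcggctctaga
Ifit1, chr19:34640759-34640858, plus strand: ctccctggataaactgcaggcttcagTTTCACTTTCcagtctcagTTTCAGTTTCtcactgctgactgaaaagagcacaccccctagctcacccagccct
Gbp3, chr3:142559944-142560043, plus strand: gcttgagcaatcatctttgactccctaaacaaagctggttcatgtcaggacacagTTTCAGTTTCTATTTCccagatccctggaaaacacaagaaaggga
Igtp, chr11:58199456-58199555, plus strand: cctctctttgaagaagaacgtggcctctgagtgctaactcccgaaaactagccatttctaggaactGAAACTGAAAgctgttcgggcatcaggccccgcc
Isg15 held 3 overlapping matches, which end 56 bases before the start, and Bst2, Ifit1 and Gbp3 held 2 each, which overlap in Bst2 and Gbp3. Igtp held 1 match, 24 bases before its start.

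Most of the MHC class I list fell, whereas 3 class II genes rose. Of 17 measured genes of class I loading and the immunoproteasome, which cut and carry peptides for display to CD8 T cells, 11 fell and none rose (median -0.90), and 0 passed in controls (median 0.01, with 2 lower at an unadjusted p under 0.05). The count was 7 without chow array 3 and 4 without HFD arrays 2 and 3. Tap1, the peptide transporter, read 9.56, 9.52 and 9.85 against 7.02, 7.70 and 6.85 and fell by 2.45 (adjusted p = 0.00091). Psmb8, a catalytic subunit of the immunoproteasome, read 8.39, 8.51 and 8.28 against 6.87, 7.44 and 6.60 and fell by 1.42 (adjusted p = 0.00243). H2-K1, a classical class I heavy chain, fell by 0.90 (adjusted p = 0.00562), and the non-classical H2-T23 by 2.30 (adjusted p = 0.00133).

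Class II genes mark antigen-presenting cells. Of 9 measured members (median 0.67, against 0.66 in controls and 0.70 in the TRAF2 knockouts), H2-Ab1, H2-Eb1 and H2-Aa rose (by 1.26, 1.23 and 1.07), with adjusted p values of 0.0253, 0.00978 and 0.0216. H2-Ab1 read 9.72, 9.23 and 9.33 on chow and 10.47, 11.62 and 9.95 on HFD, and the highest of the HFD values was that of array 2, the lymphocyte-rich one. None of the 3 passed without chow array 3, and 1 passed without chow array 2 or without HFD array 2. The corresponding differences in controls were 1.06, 0.66 and 0.81, none of which passed. The diet effect of the TRAF3 knockouts on these 3 genes did not pass as different from that in controls (adjusted p = 0.865, 0.424 and 0.77).

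Some genes of the NF-kB pathways fell. Of 11 non-canonical members 2 fell and none rose, where 6.01% of all genes fell. The median was -0.50, beside -0.26 in controls and -0.40 in the TRAF2 knockouts. For 0 of the 11 did the diet effect pass as different from that of either reference group. Cd40, a receptor that signals through TRAF3, read 6.44, 6.49 and 6.42 against 5.19, 5.79 and 5.37 and fell by 1.00 (adjusted p = 0.0426). Birc3 (cIAP2), a ligase of the complex that degrades NIK, read 8.48, 8.28 and 8.27 against 7.57, 7.71 and 7.14 and fell by 0.87 (adjusted p = 0.012). Nfkb2, the p100 precursor and itself a target of the pathway, read 8.58, 8.35 and 8.83 on chow and 7.94, 8.16 and 7.99 on HFD, and in the controls it ranged from 6.16 to 7.64. All 6 knockout arrays therefore lay above all 6 control arrays, and the diet difference within the knockouts was -0.56 (adjusted p = 0.279). Relb differed by -0.50 (adjusted p = 0.158) and Map3k14, which encodes NIK, by 0.41 (adjusted p = 0.286, passing without HFD array 3). Cd40 lost its call in each of the 6 fits that left out 1 array, and Birc3 without chow array 1. Of 15 canonical subunits and inhibitors, Ikbkg (NEMO, the regulatory subunit of the IKK complex) fell by 0.89 (adjusted p = 0.00289) and Tnip1 by 0.50 (adjusted p = 0.0343). The median of these 15 was -0.10, beside -0.29 in controls and -0.53 in the TRAF2 knockouts. Tnip1 kept its call without chow array 2 and in no other fit that left out 1 array.

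A minority of the chemokine list fell on HFD. Of 34 chemokines, cytokines and adhesion molecules 9 fell and none rose (median -0.37). The count was 5 without chow array 1, chow array 3 or HFD array 1, 5 after adjusting for the ductal score and 3 without HFD arrays 2 and 3. Ccl2, which attracts monocytes, read 10.50, 9.93 and 10.49 on chow and 6.66, 7.52 and 7.33 on HFD, and the diets did not overlap (fell by 3.14, SE 0.49, adjusted p = 0.00164). Cxcl3 and Cxcl5, which attract neutrophils, fell by 3.53 and 2.88 (adjusted p = 0.00428 and 0.00333), with HFD levels below the median of every array, where the scale compresses differences. Ccl5, which attracts T cells, read 10.20, 10.14 and 10.20 against 6.56, 9.09 and 6.62: the HFD value of 9.09 was that of array 2. It fell by 2.76 (adjusted p = 0.0196) and lost its call without chow array 1 or 3 or HFD array 1 or 3. Il6 read 9.52, 7.93 and 9.37 against 6.11, 7.18 and 5.30 (fell by 2.74, adjusted p = 0.0178), with the call lost without the same arrays. Il6 fell in the TRAF2 knockouts too (by 3.14, adjusted p = 0.0218). Tnf, Cxcl10, Icam1 and Vcam1 did not pass (differences of -0.09, -1.74, -0.94 and -0.79).

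Serpina3n, an acute phase serine protease inhibitor, had the largest fall of all genes that passed. It read 11.67, 10.86 and 11.28 on chow and 6.82, 7.06 and 5.96 on HFD and fell by 4.66 (SE 0.81, 25.2-fold, adjusted p = 0.00305). Of 18 genes of the IL-6, STAT3 and acute phase list, 9 fell and 1, Il6ra, rose (median -1.47). The count of falls was 6 without chow array 1, chow array 3 or HFD array 2, 6 after adjusting for the ductal score and 2 without HFD arrays 2 and 3, and Il6ra lost its call without any of these 3 arrays or HFD array 1. Fgg and Fgb, the gamma and beta chains of fibrinogen, fell by 4.30 and 3.84 (adjusted p = 0.00182 and 0.00182). The HFD levels of Fgg (2.99, 2.95 and 2.95) lay below the median of every array. Steap4, a metalloreductase induced by IL-6, read 10.15, 9.37 and 9.39 against 6.34, 6.85 and 4.84 (fell by 3.63, adjusted p = 0.000632). Hamp, which encodes the iron hormone hepcidin and is not in the list, fell by 3.55 (adjusted p = 0.0025). The HFD levels of Fgb and Hamp lay below those medians as well, so the sizes of these 3 falls are imprecise. Serpina3n, Fgg, Fgb, Steap4 and Hamp passed in every fit that left out 1 array. Fgb also fell in the TRAF2 knockouts (by 2.70, adjusted p = 0.0326). Of 13 complement genes (median 0.19), Cfb and Serping1 fell (by 2.80 and 1.64, adjusted p = 0.00429 and 0.00754) and Cd59a, a complement inhibitor of the cell surface, rose by 1.33 (adjusted p = 0.012, not passing without chow array 3).

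The letters TTCNNNGAA, the core of the STAT response element, were sought in the same windows because the acute phase genes are classical STAT3 targets. They occurred in 9.55% of all genes with a window and in 10.2% of the 1065 genes that fell and had one. Among genes that fell and had a window, 4 of 6 GTPases and 4 of 19 interferon-stimulated genes held them. Of the 8 acute phase genes that fell and had a window, 3 held them, so such matches were not particular to this list. The matches of Steap4 and Fgb, with the largest falls of the 3, lie 107 and 153 bases before the start.
Steap4, chr5:7960310-7960409, plus strand: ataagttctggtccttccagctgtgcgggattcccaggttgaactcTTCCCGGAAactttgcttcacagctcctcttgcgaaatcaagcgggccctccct
Fgb, chr3:83049972-83050071, minus strand: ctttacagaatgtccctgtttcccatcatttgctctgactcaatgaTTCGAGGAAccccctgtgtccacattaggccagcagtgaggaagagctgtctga

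**Figure D2:**
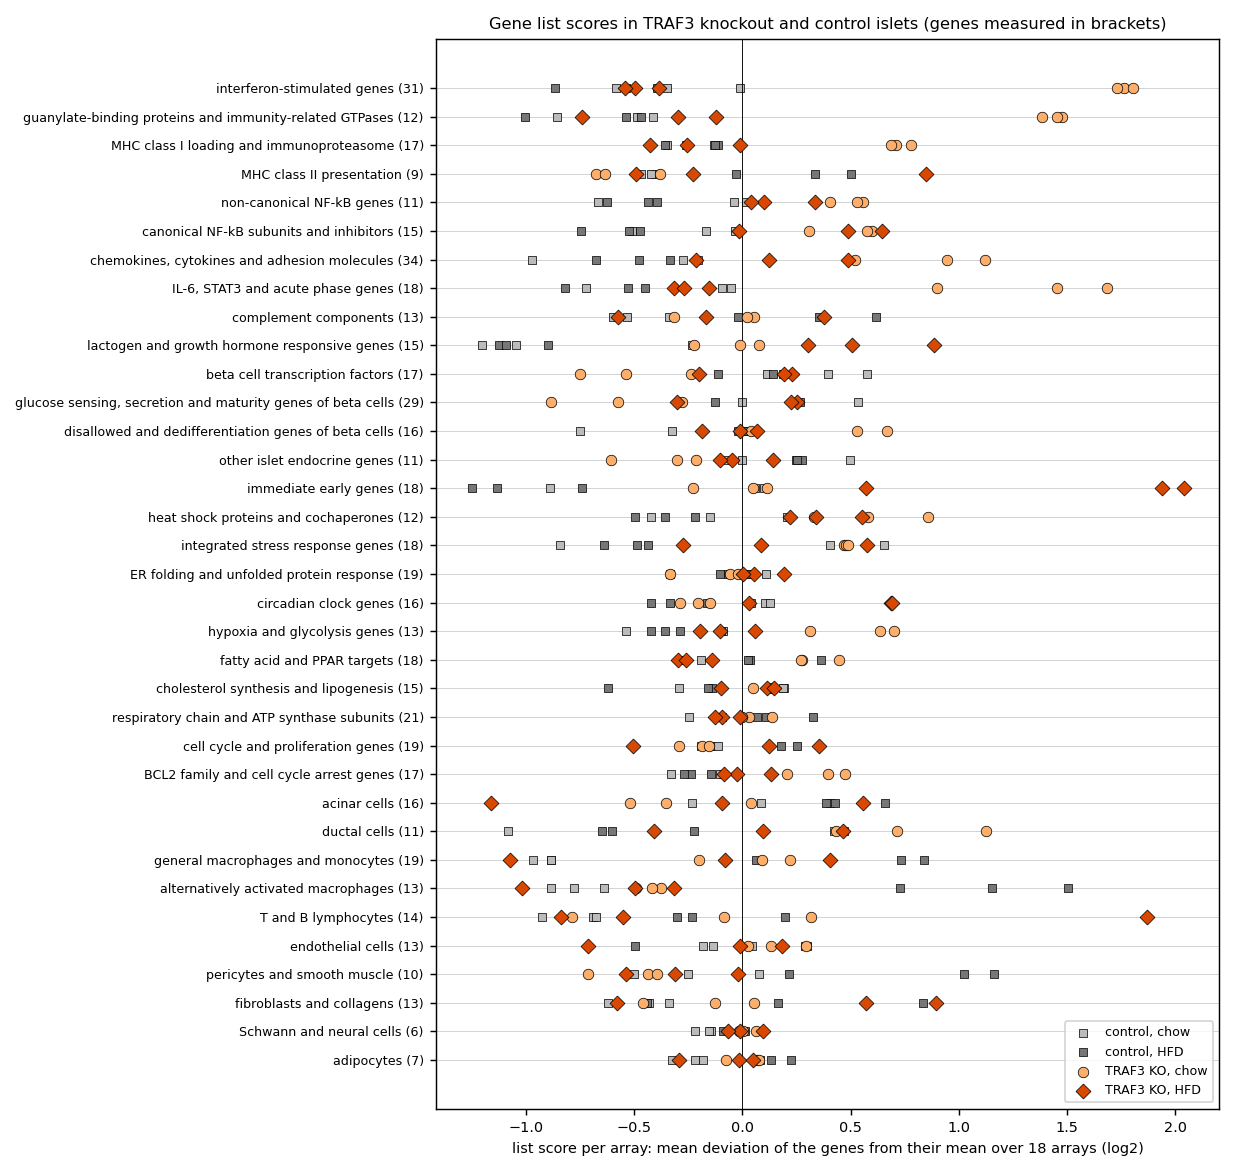
Score of each gene list (x axis, mean log2 deviation from the gene's mean over 18 arrays) in the TRAF3 knockout and control arrays; each row is a list with its number of measured genes, and each point is 1 array. The interferon-stimulated genes separate the diets of the knockouts, at 1.73 to 1.80 on chow and -0.54 to -0.39 on HFD, with the 6 control arrays between -0.87 and -0.01.

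Genes of beta cell identity were higher on HFD. Of 17 beta cell transcription factors 6 rose and none fell (median 0.41), and of 29 genes of glucose sensing, secretion and maturity 7 rose and none fell (median 0.44). In controls 0 members of either list passed (medians -0.26 and -0.11, with 2 and 1 lower at an unadjusted p under 0.05). Both counts rested on few arrays: the first was 1 without chow array 1 or 3, 3 without HFD array 1 and 2 without HFD array 2, and the second was 3 without chow array 3, 4 without chow array 1, HFD array 1 or HFD array 2, and 12 without HFD array 3. Without HFD arrays 2 and 3 they were 1 and 0, and adjusted for the ductal score 3 and 4. The chow means of 13 transcription factors and 18 maturity genes lay below all 6 control arrays, compared with the HFD means of 5 and 4. In the TRAF2 knockouts 2 transcription factors and 0 maturity genes rose (medians 0.23 and 0.15), with 3 of each list higher at an unadjusted p under 0.05. For 0 members of either list did the TRAF3 knockout diet effect pass as different from that of the TRAF2 knockouts.

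Slc2a2, the glucose transporter GLUT2 of the beta cell, read 8.20, 9.05 and 7.99 on chow and 11.35, 11.32 and 10.41 on HFD. The diets did not overlap, and the level rose by 2.61 (SE 0.52, 6.1-fold, adjusted p = 0.00719). Controls ranged from 10.93 to 11.99 on both diets, so the chow TRAF3 knockouts were the low group. Mafa, a transcription factor of mature beta cells, read 7.49, 8.11 and 6.81 against 9.65, 9.58 and 9.07 and rose by 1.97 (adjusted p = 0.00295). Ucn3, a peptide marker of maturity, read 9.11, 10.05 and 8.85 against 11.50, 11.44 and 10.71 and rose by 1.88 (adjusted p = 0.0068). Slc30a8, the zinc transporter of insulin granules, rose by 1.62 (adjusted p = 0.00754), and Insrr, the insulin receptor related receptor, by 2.21 (adjusted p = 0.00625). In all 5 the lowest of the 3 HFD values was that of array 3, and chow array 2 was the highest on chow. Slc2a2, Mafa, Ucn3 and Insrr passed in every fit that left out 1 array, and Slc30a8 in all but the one without chow array 3.

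Further members of both lists rose as well. Pdx1, the pancreatic master regulator, read 7.89, 8.44 and 7.49 against 9.14, 9.01 and 9.01 and rose by 1.11 (adjusted p = 0.0141), and Mlxipl (ChREBP), which senses glucose, rose by 1.81 (adjusted p = 0.017). Nkx6-1 and Nkx2-2 rose by 1.08 and 0.88 (adjusted p = 0.0264 and 0.0412). The insulin gene Ins2 rose by 0.57 at the edge of the threshold (adjusted p = 0.0498), and no longer passed when each array was centred on its median. Iapp, Neurod1 and Isl1 differed by 0.01, 0.06 and 0.07 and did not pass. Pdx1 lost its call without chow array 1 or 3, and Mlxipl, Nkx6-1, Nkx2-2 and Ins2 without either of these and without HFD array 1 or 2. Genes that beta cells normally repress moved the other way: of 16 such genes 4 fell and none rose (median -0.42), among them the lactate transporter Slc16a1 (by 1.44, adjusted p = 0.0313) and lactate dehydrogenase Ldha (by 1.02, adjusted p = 0.0395). None of the 4 passed without chow array 1 or 3 or without HFD array 1 or 2, nor did any of the list fall after adjusting for the ductal score.

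Among lactogen and growth hormone responsive genes, 2 of 15 rose. The mean list score was -0.052 on chow and 0.565 on HFD. It was 0.621 and 0.732 in the TRAF2 knockouts and -0.827 and -1.039 in controls. Tph1, which makes serotonin, read 6.86, 7.92 and 6.93 on chow and 11.08, 10.27 and 9.95 on HFD and rose by 3.19 (SE 0.88, adjusted p = 0.0347). In controls it lay between 3.76 and 4.55 except for 8.30 in chow control 3. Matn2, a matrix protein, rose by 2.27 (adjusted p = 0.0135). The call of Tph1 was lost without chow array 1 or 3 or HFD array 1 or 2, and that of Matn2 without chow array 3 or HFD array 1.

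Immediate early genes, which cells switch on soon after stimulation without new protein synthesis, were higher on HFD. Of 18 measured members 11 rose and 1 fell (median 1.34), against 0 higher and 1 lower in controls (median -0.74) and 0 higher and 4 lower in the TRAF2 knockouts (median -1.06). Fosb, a subunit of the AP-1 factor, read 6.60, 6.94 and 6.40 on chow and 12.64, 12.65 and 9.68 on HFD and rose by 5.01 (SE 0.99, 32.1-fold, adjusted p = 0.00666). Npas4, an activity-dependent factor that is named among the largest rises and not in the list, read 5.25, 5.56 and 5.12 against 10.59, 10.76 and 8.24 and rose by 4.55 (adjusted p = 0.00213). Atf3, a stress-inducible factor, read 7.87, 7.60 and 8.14 against 11.41, 10.64 and 10.12 (rose by 2.85, adjusted p = 0.00904). Jun read 9.99, 9.59 and 9.93 against 11.98, 11.85 and 11.10 (rose by 1.81, adjusted p = 0.00244). HFD array 3 was the lowest HFD array for all 4 genes, but still above the 3 chow arrays.

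Egr1, Fos and Nr4a1 rose by 2.35, 2.35 and 2.60 (adjusted p = 0.0184, 0.0325 and 0.0256), and their HFD array 3 lay far below arrays 1 and 2: Fos read 9.53, 9.34 and 6.91 on HFD. These 3 lost their calls in most fits that left out 1 array, whereas Fosb, Npas4, Atf3 and Jun kept theirs in all 6. Of the list, 6 members rose after adjusting for the ductal score, 4 without HFD array 2, 5 without HFD array 1 or without chow array 2, 6 without chow array 1 or 3, and 16 without HFD array 3. Ier3, an NF-kB responsive gene counted in this list, fell by 1.65 (adjusted p = 0.0355) and fell in the TRAF2 knockouts as well (by 2.54, adjusted p = 0.00947). The HFD mean of all 18 genes lay above all 6 control arrays, compared with the chow mean of 4. Ier3 lost its call without chow array 1 or 3 or HFD array 1 or 2. How long the islets were held before RNA was taken is not given, and its part in these genes was not tested.

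**Figure D3:**
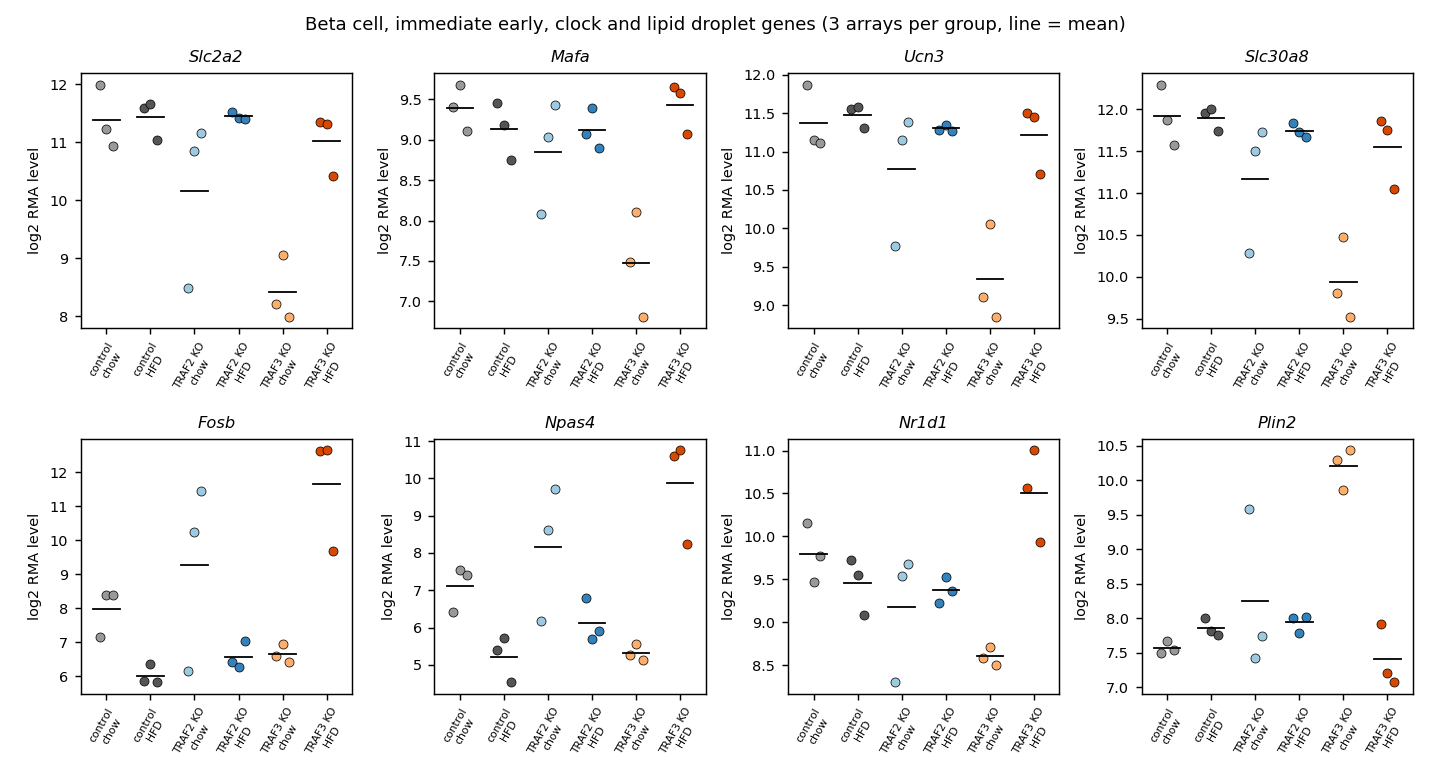
Log2 RMA level (y axis) of 8 genes in each of the 18 arrays, by genotype and diet (x axis); points are arrays, and lines are means of 3. Slc2a2, Mafa, Ucn3, Slc30a8 and Nr1d1 have their lowest mean in the chow TRAF3 knockouts, Fosb and Npas4 have their highest mean in the HFD TRAF3 knockouts (Fosb at 9.68 to 12.65), and Plin2 sits at 9.87 to 10.44 in the chow TRAF3 knockouts and at 9.59 in 1 chow TRAF2 knockout.

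Stress genes gave mixed results. Of 12 heat shock proteins 3 fell, led by the small heat shock protein Cryab (-2.19, adjusted p = 0.0201), and Hspa1a (HSP70) rose by 1.36 (adjusted p = 0.0301). Of 19 genes of ER folding and the unfolded protein response 2 rose, both of ER-associated degradation: Herpud1 by 0.82 and Syvn1 by 0.72 (adjusted p = 0.0144 and 0.00823). Of 18 integrated stress response genes, Ppp1r15a (GADD34) rose by 1.17 (adjusted p = 0.0223) and Vldlr fell by 0.76 (adjusted p = 0.0261). Over all genes 2.66% rose and 6.01% fell, and the counts of these short lists were not tested against those shares. At an unadjusted p under 0.05, 2 of the 18 were higher and 4 lower. The same level gave 0 higher and 9 lower in controls, and 0 and 12 in the TRAF2 knockouts. Hspa1a and Ppp1r15a lost their calls without chow array 1, 2 or 3 or HFD array 1 or 2. Vldlr lost its call without chow array 1 or 2 or HFD array 1 or 2. No heat shock gene, Cryab included, fell without chow array 1 or 3 or HFD array 2. Herpud1 and Syvn1 lost their calls without chow array 3, and at most 1 of them passed without HFD array 1 or 2. Of 17 genes of the BCL2 family and cell cycle arrest 6 fell, including Bcl2l1 (BCL-XL, which opposes apoptosis) by 1.00 and Bak1 (which carries it out) by 0.80 (adjusted p = 0.00408 and 0.00869). That count was 2 without chow array 1 or 3 and 2 after adjusting for the ductal score, and none of the 3 heat shock genes fell after that adjustment.

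A minority of the clock genes rose on HFD. Of 16 members 5 rose and 1 fell (median 0.56). Nr1d1 (REV-ERB alpha), the repressor of Bmal1, read 8.59, 8.71 and 8.50 against 10.57, 11.01 and 9.93 and rose by 1.90 (adjusted p = 0.00257), and the output factor Dbp rose by 1.25 (adjusted p = 0.0206). Usp2, a deubiquitinase with a strong daily rhythm and among the 12 largest rises, read 6.30, 6.39 and 6.17 against 9.70, 9.40 and 7.65 and rose by 2.63 (adjusted p = 0.00154). The list count was 1 without chow array 1 or 3 or HFD array 1 or 2, 8 without HFD array 3 and 1 after adjusting for the ductal score. Nr1d1 and Usp2 passed in every fit that left out 1 array, and Dbp did not pass without chow array 1 or 3 or HFD array 1 or 2. The hour at which islets were taken is not given.

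Lipid and glycolysis genes included more falls than rises. Plin2, the coat protein of lipid droplets, read 10.30, 9.87 and 10.44 on chow and 7.92, 7.21 and 7.08 on HFD and fell by 2.80 (SE 0.39, adjusted p = 0.000861), while controls ranged from 7.51 to 8.01. Of 18 fatty acid and PPAR targets 4 fell and none rose (median -0.32), among them Angptl4, a lipase inhibitor, by 1.80 and Cpt2, of mitochondrial fatty acid import, by 0.62 (adjusted p = 0.013 and 0.00924). Angptl4 lost its call without chow array 3, and the count was then 2, as it was after adjusting for the ductal score. Of 13 hypoxia and glycolysis genes 4 fell and 1, Vegfa, rose by 0.61 (adjusted p = 0.039), with a list median of -0.83. Vegfa lost its call without chow array 1, 2 or 3 or HFD array 1 or 2, and after adjusting for the ductal score. Pgk1, a glycolytic enzyme, read 11.90, 12.02 and 11.80 against 10.56, 10.64 and 10.87 (fell by 1.22, adjusted p = 0.00269), and the ER oxidase Ero1a fell by 1.39 (adjusted p = 0.00267). Car9, a carbonic anhydrase induced by hypoxia, fell by 2.21 on the probe set used (adjusted p = 0.00164) and differed by -0.17 on another. Of 15 genes of cholesterol synthesis and lipogenesis 2 fell (Fdps and Me1, by 1.05 and 0.84). Neither passed without chow array 3 or HFD array 2 or after adjusting for the ductal score, and at most 1 without chow array 1 or 2. None of 21 respiratory chain subunits and none of 19 cell cycle genes passed (medians -0.12 and 0.11). At an unadjusted p under 0.05, 2 of the subunits were lower and 2 of the cell cycle genes higher. Over all 22180 genes, 2871 were lower and 2009 higher at that level, and neither list count is read as a result about its members.

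Several of the 12 largest falls and 12 largest rises lie outside the groups described so far. Apol9b, an apolipoprotein L family member, read 7.54, 8.01 and 7.69 on chow and 4.20, 4.37 and 3.24 on HFD and fell by 3.81 (adjusted p = 3.78e-06). Oas1g, another oligoadenylate synthetase, read 7.95, 8.02 and 8.06 against 4.56, 4.36 and 3.20 and fell by 3.97 (adjusted p = 0.00226). Ms4a6d, a membrane protein of the MS4A family, read 8.67, 8.63 and 8.58 against 6.19, 5.28 and 3.72 and fell by 3.56 (adjusted p = 0.0076). These 3 were even on chow and lowest on HFD in array 3, and all passed in every fit that left out 1 array. Ifi204, an interferon-inducible DNA-binding protein, fell by 3.61 (adjusted p = 0.0101, not passing without chow array 3). The HFD levels of Apol9b, Oas1g and Ifi204 lay below the median of every array.

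Among the rises, Pappa2, a protease of insulin-like growth factor binding proteins, read 6.37, 7.07 and 6.14 on chow and 9.15, 9.67 and 7.84 on HFD and rose by 2.36 (adjusted p = 0.0068), a call kept in every fit that left out 1 array. In controls it read 9.89, 9.39 and 8.93 on chow and 9.85, 9.83 and 9.29 on HFD, so the chow TRAF3 knockouts were again the low group. Slc38a5, an amino acid transporter, read 5.22, 5.57 and 5.61 on chow against a mean of 7.82 ± 1.08 (SD, n = 3) on HFD, with no overlap, and rose by 2.35 (adjusted p = 0.0302). Its highest HFD value, 9.05, was that of array 3, and the call was kept only without HFD array 2 among those 6 fits. Rsph4a, a radial spoke protein of motile cilia, read 4.78, 5.49 and 4.89 against 8.36, 8.33 and 7.01 and rose by 2.85 (adjusted p = 0.0181). It did not pass without chow array 1 or 3 or HFD array 1 or 2.

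The diet difference of the TRAF3 knockouts was then set against that of the controls. For 1287 genes (5.8%) the diet effects differed (limma interaction contrast), 558 with the more positive effect in the knockouts (2.52%) and 729 with the more negative (3.29%). Each array centred on its median gave 694 and 584. Of the 1923 genes that changed in the TRAF3 knockouts and the 196 in the controls, 13 passed in both with the same direction. The 196 were 116 higher and 80 lower, and over all genes 2.66% were higher and 6.01% lower in the TRAF3 knockouts. The size of this overlap was not tested. Of the interferon-stimulated genes 19 of 31 had a more negative diet effect than in controls, and of the GTPases 8 of 12. For Irf7 the difference between diet effects was -4.38 (adjusted p = 0.00762) and for Bst2 -3.66 (adjusted p = 0.00138). Of the beta cell transcription factors 5 of 17, of the maturity genes 2 of 29 and of the immediate early genes 9 of 18 had a more positive effect. For Mafa it was 2.23 (adjusted p = 0.0168), for Fosb 6.97 (adjusted p = 0.013) and for Slc2a2 2.57, which did not pass (adjusted p = 0.0533). Set against the TRAF2 knockouts, 606 genes (2.73%) differed, 1.16% with the more positive and 1.57% with the more negative effect, 14 of the interferon-stimulated genes and 12 of the immediate early genes among them. Chow array 1 of the TRAF2 knockouts stood apart from the other 2 of its group and lay toward the chow TRAF3 knockouts, with an interferon score of 0.90 against -0.22 and -0.34 and a Serpina3n level of 11.19. Without it the count was 1582, and without any 1 other array it lay between 140 and 772.

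**Figure D4:**
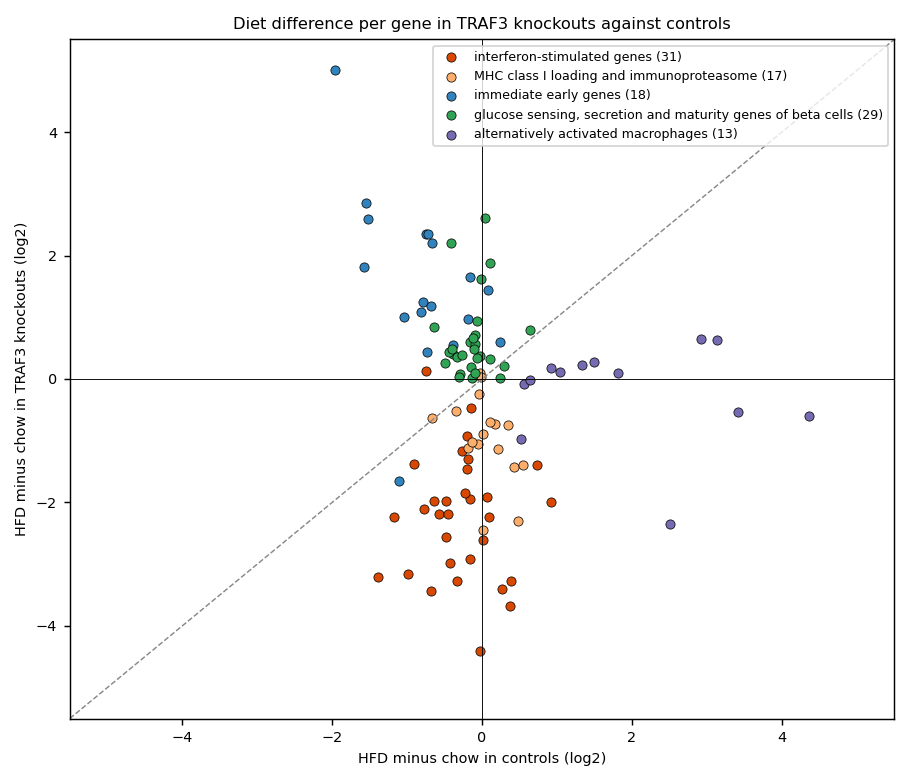
HFD minus chow difference per gene (log2) in the TRAF3 knockouts (y axis) against that in the controls (x axis) for 5 gene lists; each point is 1 gene, the dashed line marks equal effects, and both axes rest on 3 arrays per group and diet. Most interferon-stimulated genes lie below the line with a median of -2.18 in the knockouts and -0.23 in the controls, most immediate early genes lie above it, and alternatively activated macrophage genes lie to the right, with medians of 0.10 and 1.49.

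Macrophage markers rose on HFD in the reference groups and not in the TRAF3 knockouts. Of 13 markers of alternatively activated (tissue-resident) macrophages, 7 rose in controls, 7 rose in the TRAF2 knockouts and none rose in the TRAF3 knockouts, where Lyve1 and Pf4 fell (at most 1 of them passed when any 1 array was left out). The median differences were 1.49, 1.74 and 0.10. For 7 of the 13 the diet effect was more negative than in controls and for 7 more negative than in TRAF2 knockouts. Retnla, a secreted marker of these cells, read 4.52, 4.72 and 4.86 on chow and 3.49, 4.89 and 3.94 on HFD in the TRAF3 knockouts. In controls it read 4.73, 3.86 and 4.01 on chow and 9.49, 8.62 and 7.57 on HFD (difference 4.36, adjusted p = 0.000123). The diet effects differed by -4.96 (adjusted p = 0.00129). Folr2, a folate receptor of resident macrophages, read 7.15, 7.03 and 7.32 against 6.85, 7.50 and 5.54 in the TRAF3 knockouts and 6.67, 6.20 and 6.02 against 10.20, 9.96 and 8.97 in controls. Cd209d, a lectin, read 4.49, 4.28 and 3.99 against 4.50, 5.38 and 4.17 and 4.09, 3.93 and 4.15 against 8.58, 7.50 and 6.35. For both genes the knockout diets overlapped and the control diets did not.

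Of 19 general macrophage and monocyte markers, 6 rose in controls and 2 fell in the TRAF3 knockouts, and 7 had a more negative diet effect than in controls. Fcgr1, the high-affinity IgG receptor and an interferon-inducible gene, read 7.60, 7.38 and 7.29 against 5.36, 5.21 and 4.70 in the TRAF3 knockouts (fell by 2.33, adjusted p = 0.00154). In controls it read 4.99, 4.99 and 5.04 against 6.23, 6.40 and 5.64. Cd68 fell by 1.74 (adjusted p = 0.022), a call kept only without HFD array 1 among the fits that left out 1 array, and its control difference was 1.51. Cd36, a scavenger receptor, fell by 1.40 in the TRAF3 knockouts (adjusted p = 0.0297) and rose by 2.09 in controls (adjusted p = 0.02). Of 10 pericyte and smooth muscle markers 5 rose in controls and none passed in the TRAF3 knockouts: Acta2 differed by 0.63 (adjusted p = 0.39) against 2.31 in controls (adjusted p = 0.017).

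**Figure D5:**
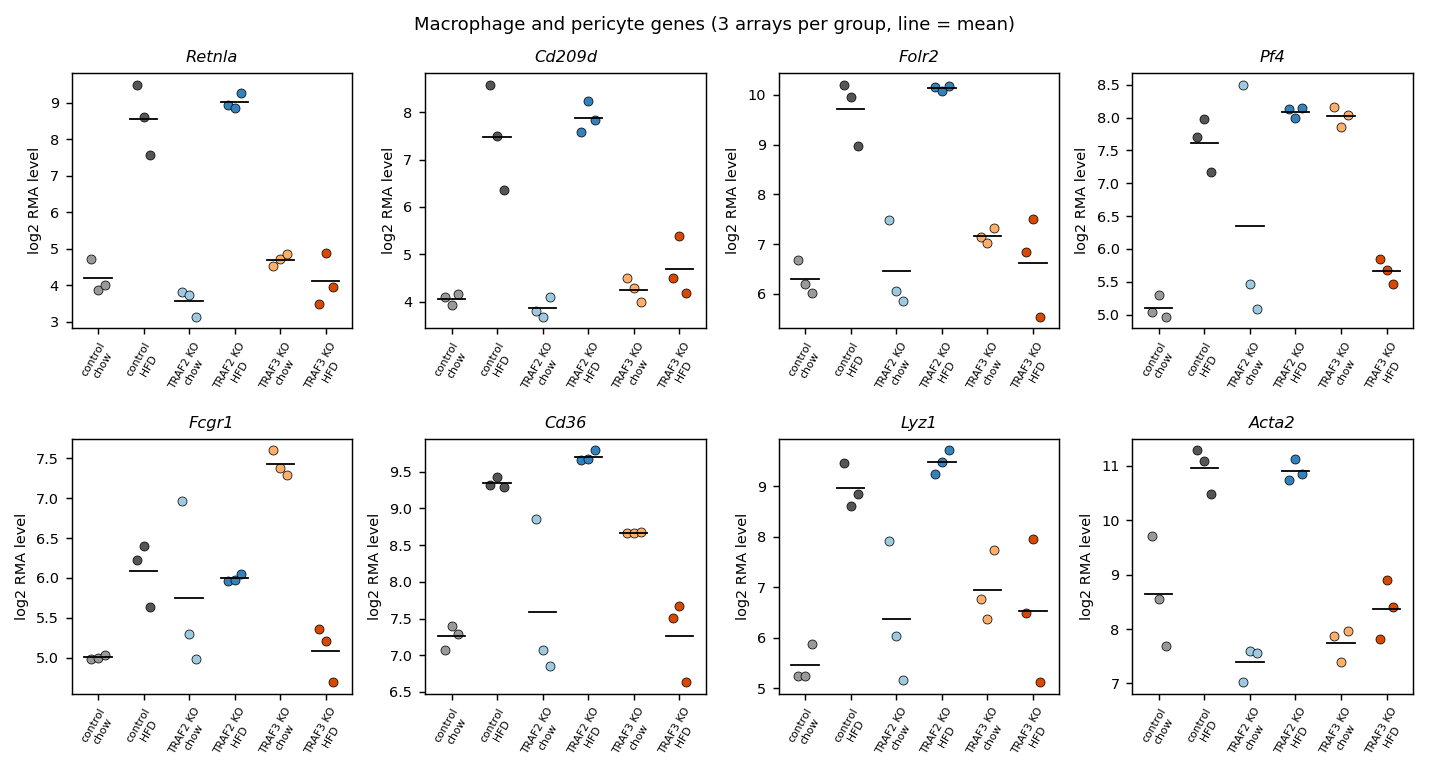
Log2 RMA level (y axis) of 7 macrophage genes and the smooth muscle gene Acta2 in each of the 18 arrays, by genotype and diet (x axis); points are arrays, and lines are means of 3. Retnla, Cd209d and Folr2 are higher on HFD in controls and TRAF2 knockouts and not in TRAF3 knockouts, where Retnla sits at 3.49 to 4.89; Pf4 and Fcgr1 are lower on HFD in TRAF3 knockouts.

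The levels of the alternatively activated macrophage markers were higher on HFD in the controls and not in the TRAF3 knockouts, and so stand beside every difference of diet effects given above. The score of the alternatively activated markers was -0.64 to -0.88 on chow and 0.729 to 1.503 on HFD in controls, with no overlap, and -0.37 to -0.49 and -1.02 to -0.32 in the TRAF3 knockouts. With that score as a covariate, chosen after the marker lists were seen, 2064 genes changed between diets in the TRAF3 knockouts and 28 of the interferon-stimulated genes still fell. The difference from controls then held for 307 genes and for none of the 78 genes that had passed among those named by the rule or examined with them, and Zbp1, Tap1 and Stat2 changed sign. The 78 include Retnla, Pf4 and Lyve1, which are members of the list behind the score and so are adjusted in part for themselves. In controls the score and the diet cannot be told apart.

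Sex was uneven between the groups, since the chow TRAF3 knockouts held 1 female and the HFD group 2. The chow controls held 1 female and the HFD controls 3. With sex as a covariate 1820 genes changed in the TRAF3 knockouts and 27 in the controls, and 1042 differed between these diet effects. Within females (HFD arrays 2 and 3 against chow array 1) the interferon-stimulated genes had a median difference of -2.21, and within males (HFD array 1 against chow arrays 2 and 3) of -2.13. The immediate early genes had medians of 1.11 and 1.97, and the alternatively activated macrophage genes of -0.11 and 0.11. These within-sex values rest on 3 arrays each and were not tested. Few markers of other cells passed between the diets in the TRAF3 knockouts: 0 of 16 acinar, 0 of 14 lymphocyte, 0 of 13 fibroblast and 0 of 7 adipocyte genes passed, and none of the first 2 groups did at an unadjusted p under 0.05. Among fibroblast genes 2 were higher and among adipocyte genes 1 was lower at that level, where 2009 of all 22180 genes were higher and 2871 lower. The fibroblast median was 0.55, and it was -0.041 within females and 1.04 within males. Of 11 ductal genes 9 were lower on HFD (median -0.66), and 1 passed. Of 13 endothelial genes 3 fell (Cdh5, Esam and Egfl7, by 0.90, 0.82 and 0.77), each a call lost in at least 5 of the 6 fits that left out 1 array.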

How the data were processed

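Islet RNA (250 ng of total RNA, biotin-labelled) was hybridised to Affymetrix whole-transcript arrays of 1 colour, with 3 arrays for each genotype and diet. The authors deposited log2 values made with RMA (background correction, quantile normalization, then 1 summarised value per probe set); limma is also named, per the submitters' processing notes, without versions. Nothing was rescaled here. Of 41345 probe sets, 23521 have exactly 1 gene symbol in the platform annotation, 1814 have several and 16010 have none. For 1082 genes with several probe sets the brightest on average across the 18 arrays was kept, which left 22180 genes. One limma fit (version 3.58.1, R 4.3.3) of 6 group means gave the diet contrasts and their differences, with Benjamini-Hochberg adjusted p values over all genes and a threshold of 0.05. The fit has 12 residual and 3.69 prior degrees of freedom, so the spread is shared with the reference groups. Groups come from the sample labels, and p values measure only the spread between these samples. The fit was tested on simulated data.

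The lists (25 of pathways, 12 of cell markers, 556 of 627 genes measured) and the comparison were chosen with earlier results of these data known. Named genes are the 12 largest rises and falls, up to 4 passing members per list with the largest change, and the 5 largest differences of diet effects in each direction; 34 more, and the lists of interferons, their receptors and nucleic acid sensors, were chosen after their values were seen, as were other list members given by value. Promoters are RefSeq windows matched by symbol. Alternatives covered scaling, the variance model, dim genes, probe sets, the samples fitted, a replicate block, sex, marker scores and single arrays left out. Markers of sex came from Xist and Y-linked genes. The Traf3 transcript is not reported here.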

Additional observations from a re-analysis of the deposited data

Results flagged for a closer look

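The diet effect of the TRAF3 knockouts differed from that of the controls for 1287 genes (limma interaction contrast, adjusted p under 0.05). These and the following genes are listed because that difference itself passed. The largest positive differences were those of Fosb (6.97 log2 units), Npas4 (6.45), Tph1 (4.61), Rsph4a (4.60) and Atf3 (4.40), and the largest negative ones those of Ms4a6d (-5.25), Retnla (-4.96), Gpnmb (-4.89), Pf4 (-4.86) and Ifi204 (-4.85). Tph1, Gpnmb and Ifi204 lost that call in at least 1 fit that left out 1 array, and the others kept it. None of the 10 passed with the alternatively activated macrophage score as a covariate. Retnla and Pf4 are members of the list behind the score, so their lost calls carry no information.

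Against the TRAF2 knockouts the diet effect differed for 606 genes. The largest positive differences were those of Fosb (7.70), Npas4 (6.59), Atf3 (5.08), Nr4a1 (4.38) and Rsph4a (3.81), and the largest negative ones those of Retnla (-6.05), Folr2 (-4.21), Pf4 (-4.09), Cd209d (-3.60) and Cd36 (-3.51). Nr4a1 and Rsph4a lost the call in at least 1 fit that left out 1 array. None of the 10 passed with that score as a covariate. Retnla, Folr2 and Pf4 are members of the list behind the score, so their lost calls carry no information. Groups of 3 arrays were not tested for an outlying array.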

How the results depend on the processing

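Of the 119 named genes that passed between diets in the TRAF3 knockouts, none changed sign under the 19 alternatives and 53 passed in every fit that left out 1 array. Most were named for large changes in the same arrays, so a kept sign is no independent support. The count of 1923 genes was 914 after adjustment for the ductal score, 608 with only the 6 arrays compared, 281 without HFD arrays 2 and 3, and 618 to 2466 when 1 array was left out. In controls the count of 196 was 487 with each array centred on its median (124 higher and 363 lower, or 25.5% higher in place of 59.2%), 306 without the dimmer genes, 27 with sex, 337 with the acinar score, 1202 with the ductal score and 1096 with the alternatively activated macrophage score as a covariate, 78 with only its own arrays, and 19 to 603 when 1 array was left out. The 1287 differences from controls became 307 with the macrophage score, 338 without HFD arrays 2 and 3, and 414 to 1963 when 1 array was left out; centring put 54.3% of them higher in place of 43.4%. The 606 differences from TRAF2 knockouts became 334 over every probe set, 181 with the macrophage score, 192 without HFD arrays 2 and 3, and 140 to 1582 when 1 array was left out. The cause of these changes was not tested.

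Replicate numbers are shared by the groups, and with the replicate number as a block 1942 genes passed in the TRAF3 knockouts, 189 in controls, 1366 as different from controls and 525 as different from TRAF2 knockouts. The deviations of same-numbered chow and HFD arrays correlated at -0.218, -0.0462 and 0.193, so the numbers are not taken as pairs.

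The macrophage score and leaving out HFD arrays 2 and 3 together were chosen after seeing the data. With that score as a covariate the difference from controls changed sign, without passing, for Oas1g (1.07), Zbp1 (0.73), Ifi204 (0.27), Ms4a6d (0.041), Lyz1 (0.37), Igtp (0.12), Irgm2 (0.13), Iigp1 (0.77), Tap1 (0.15), Ccl5 (0.92), Cfb (0.41), Serping1 (0.67), Hnf4a (-0.29), Casp8 (0.11), Anxa3 (0.49), Lyve1 (0.20), Stat2 (0.27), Ifnar2 (0.11) and H2-K1 (0.33). The difference from TRAF2 knockouts did so for Irf7 (0.73), Zbp1 (1.64), Steap4 (0.68), Pf4 (0.22), Igtp (0.24), Irgm2 (0.34), Tap1 (0.62), H2-T23 (0.43), Cfb (1.04), Plin2 (0.12), Casp8 (0.091), Anxa3 (0.70), Fcgr1 (0.37), Lyve1 (0.38) and Stat2 (0.73). Lyve1 and Pf4 are members of the list behind the score, so their changes of sign carry no information. In controls the score does not overlap between diets, so it and the diet cannot be told apart. The same holds in the TRAF2 knockouts, with scores of -0.021, -0.929 and -1.068 on chow and 1.396, 1.376 and 1.276 on HFD.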
